A study of Mus musculus with 6 samples.

Results

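The genes described here encode the enzymes that build fatty acids from carbohydrate carbon and desaturate them, with 1 regulator. They are Acly, Me1, Acaca, Acacb, Fasn, Elovl5, Elovl6, Scd1, Scd2 and Thrsp. Members were taken by gene symbol, and each of the 10 symbols had 1 row among the 23282 rows of the count tables. The list was chosen by the measured levels of Fasn and Scd1, which had been seen to be higher with inotodiol in these same libraries, and filled with other genes of the pathway. The differences between groups are therefore given as a description, with standard errors and 95% intervals but without a test read from them.

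The study measured RNA in the gastrocnemius muscle of male wild-type C57/BL6J mice that were 20 months old. One group of 3 mice received inotodiol, a sterol-like compound from chaga (Inonotus obliquus), by mouth at 0.35 mg/kg every day for 10 weeks. The control group of 3 mice received the vehicle, made of 40% polyethylene glycol, 5% Tween 80 and 0.9% saline. Every sample is 1 library and is labelled as a biological replicate, no group of young mice is among the samples used here, and the labels name no batch. The libraries held 8961893 to 9953764 counts. The 11 muscle fibre markers examined, among them Acta1, Ckm and Myh4, were detected in every library. They summed to 155159 to 159550 CPM in vehicle and 160132 to 168020 CPM in inotodiol libraries. These sums did not overlap, but each of the 11 markers taken singly overlapped between the groups. CPM are counts scaled to library size, here with the TMM method. Rn45s, the precursor of ribosomal RNA, made up 3.97%, 6.82% and 4.38% of all counts in vehicle 1, 2 and 3 and 10.2%, 9.56% and 4.33% in inotodiol 1, 2 and 3, where numbers name the replicates. The 20 hepatocyte markers, such as Alb and Ttr, also set libraries apart. They summed to 40.5, 105 and 67.4 CPM in vehicle 1 to 3 and to 791, 329 and 119 CPM in inotodiol 1 to 3. Cyp2e1, 1 of these markers, did not follow the sum and was highest in vehicle 1. It had 24.4, 9.93 and 9.33 CPM in vehicle 1 to 3 and 20.0, 12.8 and 12.8 CPM in inotodiol 1 to 3.

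De novo lipogenesis starts in the cytosol, where ATP citrate lyase (Acly) cleaves citrate to acetyl-CoA and acetyl-CoA carboxylase makes malonyl-CoA from it. Fatty acid synthase (Fasn) joins these units into palmitate with reducing power from NADPH, part of which malic enzyme (Me1) supplies. Elongases lengthen the product and stearoyl-CoA desaturases (Scd1, Scd2) place a double bond in it. The pathway is most active in liver, fat and the lactating mammary gland, and much less so in skeletal muscle, where the malonyl-CoA made by Acacb is better known as the brake on fatty acid entry into mitochondria. Its genes are classic targets of SREBP-1c (encoded by Srebf1), of the carbohydrate sensor ChREBP (Mlxipl) and, through Srebf1 and in part directly, of the liver X receptors, which the series title names.

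Promoter windows of 3 members are shown because these genes mark the ends of the range of differences: Fasn had the largest fold change and Elovl5 the lowest, while Thrsp lay with Scd1 at the next largest. Each window runs from 250 bases before to 50 bases after the start of the gene in RefSeq on GRCm38.p6, and is printed on the strand of the gene. That start is the GENCODE M21 start for Fasn, lies within 1 base of it for Elovl5 and lies 180 bases inside the GENCODE span for Thrsp. Capitals mark the CCAAT box, the letters CCAAT or the same letters on the other strand (ATTGG). This is the motif bound by NF-Y, a factor that works beside SREBP at many lipid genes.
Fasn, chr11:120824498-120824797, minus strand: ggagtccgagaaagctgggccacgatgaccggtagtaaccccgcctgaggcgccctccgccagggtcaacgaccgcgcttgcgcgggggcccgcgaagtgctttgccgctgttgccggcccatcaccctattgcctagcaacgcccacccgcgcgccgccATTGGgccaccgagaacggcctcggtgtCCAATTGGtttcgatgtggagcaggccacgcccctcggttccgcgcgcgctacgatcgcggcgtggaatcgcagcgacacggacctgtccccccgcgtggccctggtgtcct
Thrsp, chr7:97417501-97417800, minus strand: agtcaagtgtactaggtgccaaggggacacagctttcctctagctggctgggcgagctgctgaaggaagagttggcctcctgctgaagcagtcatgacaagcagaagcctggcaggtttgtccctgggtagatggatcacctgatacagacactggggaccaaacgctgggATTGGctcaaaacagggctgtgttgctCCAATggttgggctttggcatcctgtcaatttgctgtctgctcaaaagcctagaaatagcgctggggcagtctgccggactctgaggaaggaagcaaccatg
Elovl5, chr9:77917115-77917414, plus strand: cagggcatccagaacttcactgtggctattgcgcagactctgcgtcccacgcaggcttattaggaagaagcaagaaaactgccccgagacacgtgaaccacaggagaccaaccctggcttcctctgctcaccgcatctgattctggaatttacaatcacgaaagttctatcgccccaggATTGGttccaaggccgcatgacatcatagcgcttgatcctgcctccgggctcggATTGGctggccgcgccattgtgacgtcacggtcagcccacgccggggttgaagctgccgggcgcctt

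In the Fasn window the motif begins 90, 62 and 59 bases before the RefSeq start, and the last 2 matches, on opposite strands, overlap. It begins 79 and 52 bases before the start of Thrsp and 71 and 17 bases before that of Elovl5, so the member with the lowest difference carried it as well. The 8 members other than Scd1 and Scd2 had 9 windows, since Me1 had 2. The CCAAT box was found in 6 of the 9, against 37.4% of all 32851 windows of this length. Of the Me1 windows, the one 8676 bases inside the gene held it and the one near the annotated start did not. The windows of Acaca and Acacb also lie far inside the GENCODE spans, by 65766 and 18983 bases. The E box CACGTG was found in Elovl5 alone of the members, and in 7.15% of all windows. The sterol element TCACNCCAC, in 1.24% of all windows, and the DR4 element of the liver X receptors, searched as AGGTCA repeated in the same direction after a gap of 4 bases and in 0.015% of all windows, were found in no member. The GC box GGGCGG was found in Acly and Me1 and in 35.7% of all windows. Both strands were searched for each motif, and these matches describe letters in short windows only.

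With inotodiol, Fasn was 2.13-fold and Scd1 1.42-fold the level in vehicle muscle, Thrsp was 1.42-fold and Acaca 1.25-fold, and the remaining members lay between 0.867-fold and 1.09-fold. For every member at least 1 inotodiol library lay within the range of the vehicle libraries, or the reverse. All 10 members passed the filter on low counts, with Elovl6 near its limit. None of them was among the genes called by edgeR's quasi-likelihood test at an adjusted p under 0.05, where 0 of the 11700 genes tested were called (0%). DESeq2 called 1 gene and limma-voom called 0. Without inotodiol replicate 3 edgeR called 25 genes, and with no filter on low counts it called 95. Fasn was the only member among those 95, and no member was among the 25 or the 1 of DESeq2. The list was chosen by the level of Fasn, so nothing is read from that call. At an unadjusted p under 0.05 edgeR had 570 genes (4.87%), 312 of them higher with inotodiol (2.67%) and 258 lower (2.21%), and nothing is read from these shares about the members. The groups did not overlap for 1218 of all genes (10.4%), with inotodiol above for 5.15% and below for 5.26% of all genes, and for 0 of the 10 members. The median log2 fold change was 0.081 over the members, 8 of which were above 0, and -0.00073 over all genes, of which 49.9% were above 0. Without Fasn and Scd1 the median of the other 8 members was 0.040, with 6 above 0. In muscle homogenates such as these, a change in the number of cells of a type cannot be told apart from a change in RNA per cell. Levels of the members were not compared with each other, because whether counts rise with transcript length was not checked here. Sums over marker lists do add the CPM of different genes, and the genes with the most counts weigh most in them.

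**Figure D1:**
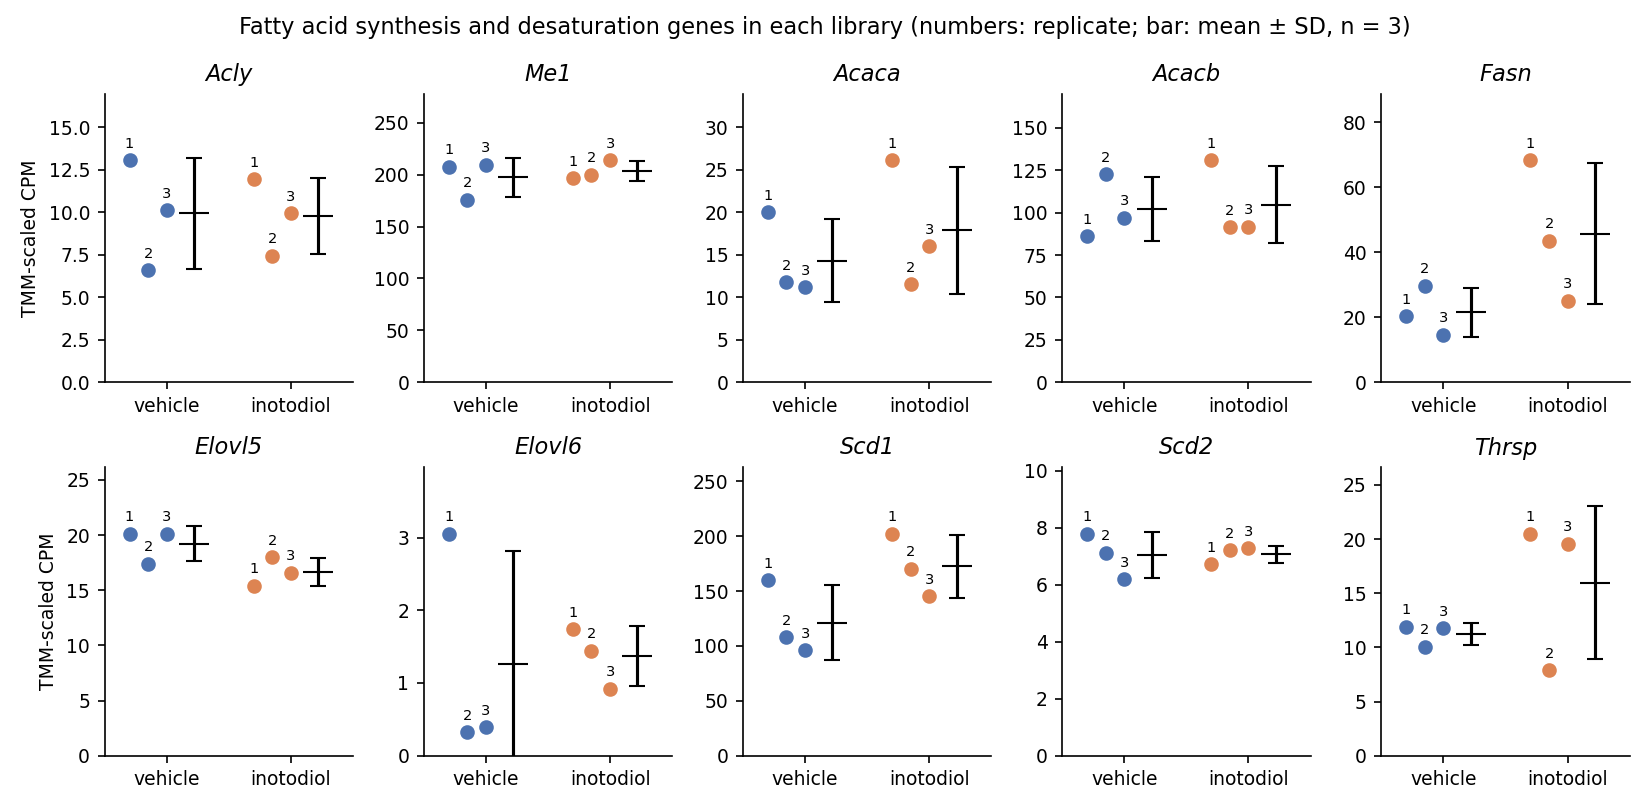
TMM-scaled CPM of each of the 10 genes (vertical axes from 0) in the 3 vehicle libraries (blue) and the 3 inotodiol libraries (orange), with replicate numbers above the points and the mean ± SD as a black bar (n = 3). Fasn ranged from 14.5 to 29.7 CPM in vehicle and from 25.1 to 68.4 CPM in inotodiol libraries, and the lower end of the Elovl6 vehicle bar lies below 0 and is not drawn.

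Acly, which opens the pathway (chromosome 11, 100476353 to 100528000, minus strand in GENCODE M21 on GRCm38), had 13.1, 6.59 and 10.1 CPM in vehicle 1 to 3 and 11.9, 7.43 and 9.94 CPM in inotodiol 1 to 3. The inotodiol values lay inside the range of the vehicle values, and library 2 was the lowest of each. Vehicle mice averaged 9.92 ± 3.24 CPM and inotodiol mice 9.77 ± 2.26 CPM (SD, n = 3). The log2 fold change, inotodiol over vehicle as for all genes here, was -0.022 with a standard error of 0.32 and a 95% interval of -0.71 to 0.66.

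Me1, which makes NADPH and pyruvate from malate (chromosome 9, 86581371 to 86695953), was the member with the narrowest spread. It had 207, 176 and 209.6 CPM in vehicle 1 to 3 and 196, 200.1 and 214 CPM in inotodiol 1 to 3. The log2 fold change was 0.042 ± 0.13 (SE; 95% interval -0.23 to 0.32), so the interval leaves room for a rise of up to 1.25-fold and a fall to 0.850-fold. Of the 50-base words in the annotated Me1 transcripts 28.3% also occur in transcripts of other genes, mainly the processed pseudogene Gm7049 and the noncoding Gm48795. Neither is a row of the tables, so how such reads were assigned is not known. This share, like those of other members below, is taken over whole annotated transcripts. Where along them the reads fell was not examined, so it is not a share of reads.

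The carboxylases form malonyl-CoA. Acaca, the cytosolic isoform that feeds fatty acid synthase (chromosome 11, 84129672 to 84401651), had 20.0, 11.8 and 11.2 CPM in vehicle 1 to 3 and 26.2, 11.5 and 16.0 CPM in inotodiol 1 to 3. Inotodiol 1 was the highest library and vehicle 1 the next, and inotodiol 2 lay among the low vehicle values. The log2 fold change was 0.32 ± 0.32 (95% interval -0.36 to 1.00), and it was -0.055 without inotodiol replicate 1. Acaca shares 30.4% of its 50-base words with other transcripts, nearly all of them with the processed pseudogene Gm5182.

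Acacb, the isoform at the outer mitochondrial membrane whose product limits fatty acid oxidation (chromosome 5, 114146535 to 114250761), had 86.2, 123 and 97.0 CPM in vehicle 1 to 3. It had 131, 91.3 and 91.6 CPM in inotodiol 1 to 3. Inotodiol 1 and vehicle 2 were the high libraries, 1 of each group. The log2 fold change was 0.037 ± 0.18 (95% interval -0.35 to 0.43).

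Fasn, the synthase itself (chromosome 11, 120805846 to 120824547, minus strand), differed most. It had 192, 275 and 148 counts in vehicle 1 to 3, or 20.2, 29.7 and 14.5 CPM, and 630, 392 and 245 counts in inotodiol 1 to 3, or 68.4, 43.5 and 25.1 CPM. Inotodiol 1 and 2 stood above every vehicle library, whereas inotodiol 3 lay below vehicle 2. The means were 21.5 ± 7.66 and 45.7 ± 21.7 CPM (SD), with a log2 fold change of 1.09 ± 0.32 with a 95% interval of 0.40 to 1.78, which is 1.32-fold to 3.43-fold. Counting error is about 5.65% at the mean count of Fasn, and the coefficients of variation were 35.6% among vehicle and 47.5% among inotodiol mice. No 50-base word of Fasn occurs in another annotated transcript, and no other annotated gene overlaps it. The log2 fold change ranged from 0.68 without inotodiol replicate 1 to 1.40 without vehicle replicate 2.

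The elongases extend palmitate and longer polyunsaturated chains. Elovl5, which acts on polyunsaturated chains (chromosome 9, 77917364 to 77984519), had 20.1, 17.4 and 20.1 CPM in vehicle 1 to 3 and 15.4, 18.0 and 16.6 CPM in inotodiol 1 to 3. Inotodiol 2 lay above vehicle 2, and inotodiol 1 and 3 below all vehicle libraries. The log2 fold change was -0.21 ± 0.21 (95% interval -0.65 to 0.24), and it was below 0 in each of the 15 alternatives. Elovl6, which extends palmitate to stearate (chromosome 3, 129532355 to 129638495), had 29, 3 and 4 counts in vehicle 1 to 3 and 16, 13 and 9 in inotodiol 1 to 3. Vehicle 1 was the highest library and vehicle 2 and 3 the lowest. A count of 3 carries an exact 95% Poisson interval of 0.619 to 8.77 counts, for counting error only. Its log2 fold change was 0.12 ± 0.90 (95% interval -1.82 to 2.06) and 1.89 without vehicle replicate 1, so the interval reaches far in both directions and 1 library sets the value.

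The desaturases introduce the double bond of oleate and palmitoleate. Scd1, the main isoform of liver and fat (chromosome 19, 44394455 to 44407879, minus strand), had 160.1, 108 and 95.96 CPM in vehicle 1 to 3. It had 202, 171 and 145 CPM in inotodiol 1 to 3. Inotodiol 1 and 2 were the 2 highest libraries, and vehicle 1 lay above inotodiol 3. The means were 121 ± 34.1 and 173 ± 28.6 CPM, a log2 fold change of 0.51 ± 0.19 with a 95% interval of 0.10 to 0.92, or 1.07-fold to 1.89-fold. It ranged from 0.37 without vehicle replicate 3 to 0.76 without vehicle replicate 1.

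Scd2, the isoform best known from brain and from early life (chromosome 19, 44293674 to 44306864, plus strand), lies on the same chromosome as Scd1. It had 74, 66 and 63 counts in vehicle 1 to 3 and 62, 65 and 71 in inotodiol 1 to 3. Its log2 fold change was 0.0080 ± 0.30 (95% interval -0.65 to 0.66). Whether Scd1 and Scd2 differ in their response was not tested. The genes share 145 words of 50 bases, which is 2.97% of the words of Scd1 and 2.66% of those of Scd2. Reads from these stretches may have been split between the genes or with Scd3, which had 0 to 12 counts per library. What part of the reads this touches is not known.

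Thrsp (Spot 14), a small nuclear and cytosolic protein that rises with thyroid hormone and carbohydrate feeding and promotes lipogenesis (chromosome 7, 97412938 to 97417730, minus strand), had 11.9, 10.0 and 11.8 CPM in vehicle 1 to 3. It had 20.5, 7.88 and 19.6 CPM in inotodiol 1 to 3. Inotodiol 1 and 3 lay well above the vehicle libraries and inotodiol 2 below all of them, although Fasn was second highest in inotodiol 2. The coefficient of variation was 9.27% in vehicle and 44.0% in inotodiol muscle. Its log2 fold change was 0.51 ± 0.32 (95% interval -0.19 to 1.20).

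**Figure D2:**
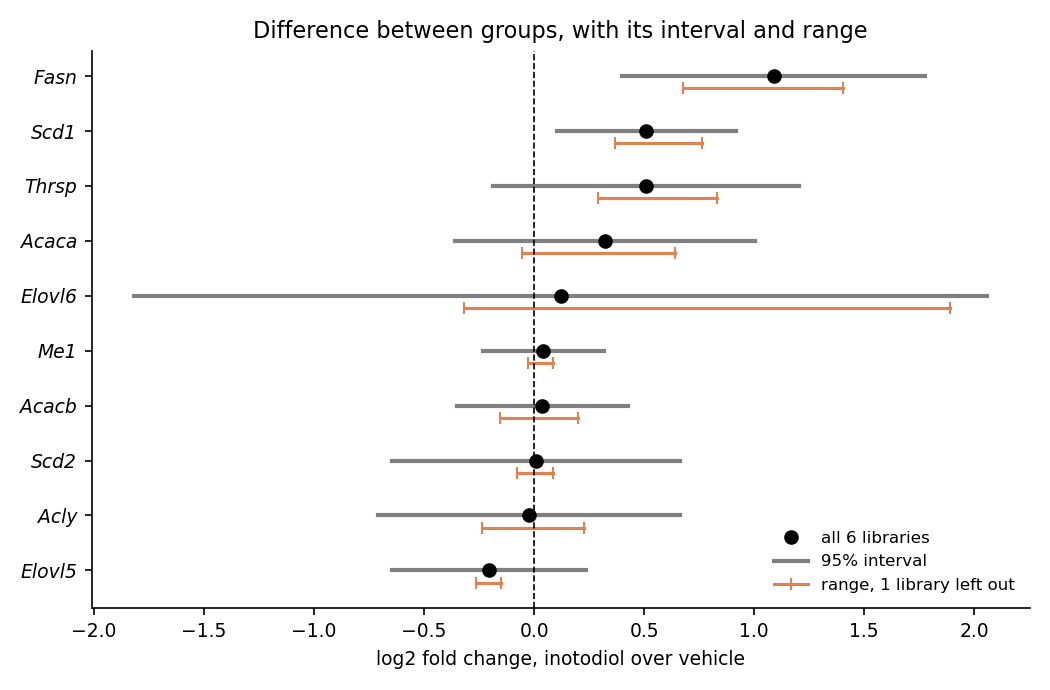
Log2 fold change of each gene, inotodiol over vehicle, on the horizontal axis (black points, n = 3 per group), with the 95% interval in grey and the range over the 6 fits that leave out 1 library in orange. Fasn has the highest value, 1.09, and Elovl5 the lowest, -0.21; Elovl6 has the widest interval, and the ranges of Scd2, Acaca, Acacb, Acly, Elovl6 and Me1 cross 0.

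The members did not move as a block across mice. Relative to its own mean over the 6 libraries on the log2 CPM scale, Fasn was 1.21 and 0.56 higher in inotodiol 1 and 2, 0.23 lower in inotodiol 3 and 1.01 lower in vehicle 3. Inotodiol 1 was the highest library for 5 members (Fasn, Scd1, Acaca, Acacb and Thrsp), and vehicle 1 for 3 (Scd2, Acly and Elovl6). Averaged over the 10 members, these levels were 0.19, -0.28 and -0.31 in vehicle 1 to 3 and 0.42, -0.034 and 0.026 in inotodiol 1 to 3. Vehicle 1 thus stood above inotodiol 2 and 3, and the groups overlapped on this mean as well.

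**Figure D3:**
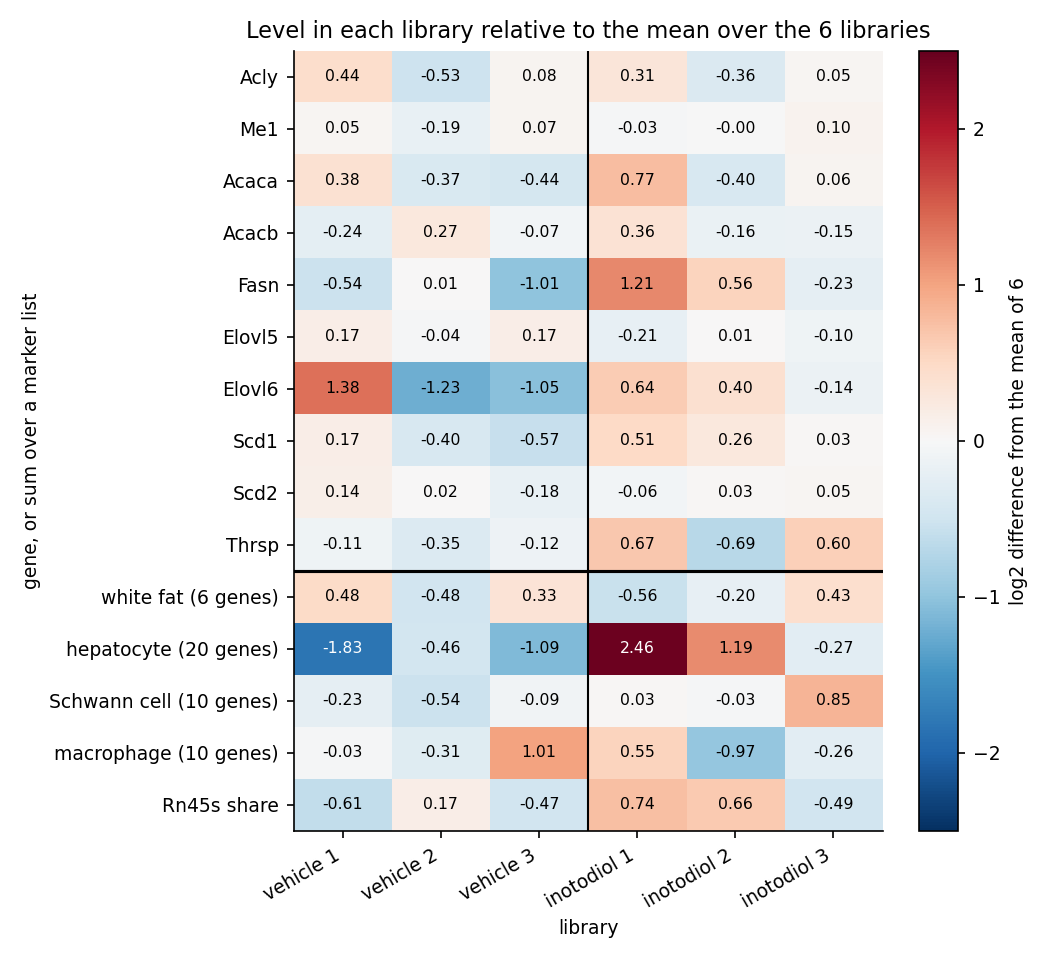
Level in each library (columns, vehicle left and inotodiol right) relative to the mean over the 6 libraries, in log2 units as printed in the cells, for the 10 genes (above the line) and for sums over marker lists and the Rn45s share (below the line). In inotodiol 1 Fasn stood 1.21 above its mean and the hepatocyte sum 2.46 above, while the white fat sum stood 0.56 below.

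Fat cells between the fibres make these enzymes in abundance, so the fat markers were read in the same libraries. White fat was present in all of them. All 6 defining genes, which are Adipoq, Plin1, Lep, Cfd, Retn and Cidec, had counts in every library, and 13 to 15 of the 15 markers of the whole list did. Adrb3 was at 0 in vehicle 2, inotodiol 1 and inotodiol 2, and Lgals12 in inotodiol 1. The defining genes summed to 302, 156 and 272 CPM in vehicle 1 to 3 and to 146, 189 and 291 CPM in inotodiol 1 to 3. The whole list summed to 714 to 911 CPM in vehicle and 656 to 954 CPM in inotodiol libraries. The groups overlapped on both sums.

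The summed defining markers were lowest where Fasn was highest, and single markers differed from the sum. Inotodiol 1 held the lowest sum of defining genes and the highest Fasn, and the 3 libraries with the lowest fat sums (inotodiol 1, vehicle 2 and inotodiol 2) were the 3 with the highest Fasn. Adipoq, the fat cell hormone adiponectin, had 68.0, 43.4 and 68.9 CPM in vehicle 1 to 3 and 30.9, 59.3 and 81.2 CPM in inotodiol 1 to 3. Cfd, the adipocyte protease adipsin and the gene with the highest CPM of the 6, had 71.6 CPM in inotodiol 1 and 71.1 CPM in inotodiol 2. Both lay below the 77.0 to 184 CPM of the other libraries. Retn, which encodes resistin, stood at 10.5 CPM in inotodiol 1, its second highest library, and Lep, the leptin gene, was highest in inotodiol 2 at 14.6 CPM. Aqp7, the glycerol channel of fat cells and a marker of the whole list, was highest in inotodiol 1 at 12.04 CPM. Of the 13 tested markers of the whole list, 4 had a log2 fold change above 0 and 9 below. Inotodiol lay below without overlap for 2 of the 13, Fabp4 and Lipe, as for 5.26% of all genes. Scd1 did not follow the sum of defining genes, with 160.1 CPM in vehicle 1, where that fat sum was highest, and 202 CPM in inotodiol 1, where it was lowest. The part of fat cells in the levels of Fasn, Scd1 and the other members was not tested. For the brown fat list, Ucp1 had 0 counts in all 6 libraries, where a count of 0 allows up to 3 counts per library (a one-sided limit for counting error only), and the list summed to 9.43 to 14.2 CPM in vehicle and 9.43 to 19.3 CPM in inotodiol libraries.

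Liver transcripts and Rn45s were high in the libraries with the most Fasn. Liver is a main site of Fasn, Scd1 and Thrsp expression. The hepatocyte sum did not overlap between groups, and 16 to 20 of its 20 markers had counts in a library, with Hpx, Apoh, Cps1 and Tat at 0 in vehicle 1 and Tat at 0 in vehicle 2. Inotodiol 1 and 2 led in Fasn, in Scd1, in the hepatocyte sum and in the Rn45s share, and vehicle 2 had the third highest Fasn and the third highest Rn45s share. Inotodiol 3 had 119 CPM of hepatocyte markers, near the 105 CPM of vehicle 2, and 25.1 CPM of Fasn, below the 29.7 CPM of vehicle 2. Thrsp did not follow the hepatocyte sum. It was lowest in inotodiol 2 at 7.88 CPM and stood at 20.5 and 19.6 CPM in inotodiol 1 and 3. The 10 exocrine pancreas markers summed to 70.4 CPM in inotodiol 1 and to 0.205 to 1.73 CPM elsewhere. The part of these other transcripts in the levels of Fasn, Scd1 and Thrsp was not tested.

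Markers of nerve and blood-derived cells moved differently. The 10 Schwann cell markers, whose cells make lipid for myelin, summed to 82.5 to 113 CPM in vehicle and 118 to 217 CPM in inotodiol libraries, without overlap and highest in inotodiol 3. Fasn and Scd1 were lowest of their group in that library. Mag, a defining myelin gene, was at 0 in inotodiol 2 and 3. The 10 macrophage markers summed to 109 to 272 CPM in vehicle and 69.2 to 199 CPM in inotodiol libraries and overlapped. Their part in the members' levels was not tested either.

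**Figure D4:**
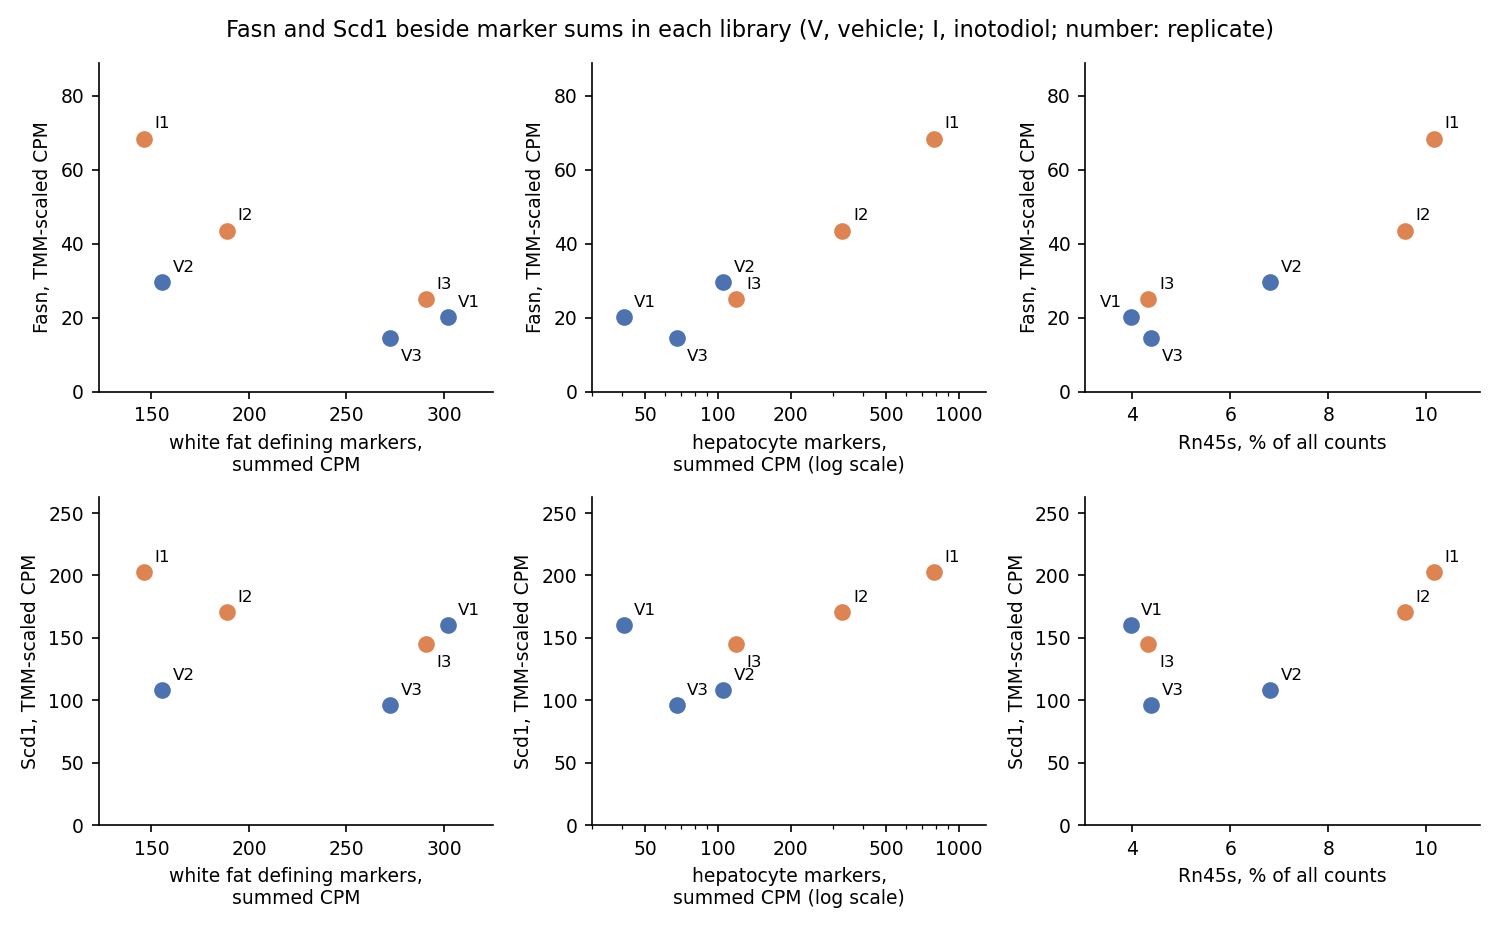
CPM of Fasn (top) and Scd1 (bottom) in each library against the summed CPM of the 6 white fat defining markers (left), the summed CPM of 20 hepatocyte markers on a log axis (middle) and the share of all counts taken by Rn45s (right), with vehicle (V) in blue and inotodiol (I) in orange. The library with the highest Fasn, inotodiol 1 at 68.4 CPM, has the lowest fat sum, 146 CPM, and the highest hepatocyte sum and Rn45s share.

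The genes whose pattern over the 6 libraries was most like that of Fasn were sought among genes averaging 5 CPM or more, 8478 with Fasn itself. Likeness was measured as the root mean square difference of log2 CPM after each gene was centred on its own mean. Genes were not scaled to equal spread, so a rank depends on how widely a gene varied as well as on its pattern. The nearest were the noncoding 2900060B14Rik (0.19 log2 units), Rn45s (0.29), Fcho2 (0.29), Zfp442 (0.29) and Nufip1 (0.30). None is an enzyme of fatty acid synthesis. Of the members, Scd1 ranked 140 at 0.50, Acacb 843, Acaca 1323, Scd2 3012, Me1 4223, Thrsp 4724, Acly 6009 and Elovl5 6155, while Elovl6 was too low to be ranked. The 11 fat markers that could be ranked spread widely, with Aqp7 at 99, Lipe at 5066 and the others from 5622 (Pck1) to 8349 (Cfd), Adipoq at 8308 among them. Among the genes near to Scd1 were Usp33 (0.092), Lrrcc1 (0.094), Snapc2 (0.11) and Dtx2 (0.11), and Acaca ranked 646 there. The likeness was not mutual in rank, as Fasn ranked 5677 from Scd1 at the same difference of 0.50 log2 units. With a minimum mean of 1 CPM, 1 of the 5 genes nearest to Fasn was the same.

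The wider pathway was read in 4 lists with 61 genes, of which 51 could be tested. None was called by edgeR at an adjusted p under 0.05, with an adjusted p of at least 0.96 for every one, and 22 lay above 0 and 29 below, with a median log2 fold change of -0.060 against -0.00073 over all genes. At an unadjusted p under 0.05 there were 0 higher and 2 lower genes of the 51, where 2.67% of all genes were higher and 2.21% lower. The groups did not overlap for 4 of the 51, 1 with inotodiol above and 3 below, where 10.4% of all genes did not.

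Among the 12 genes that supply carbon and NADPH or serve mitochondrial fatty acid synthesis, 5 lay above 0 and 7 below. Acss2, which makes acetyl-CoA from acetate, had 14.7, 12.7 and 11.9 CPM in vehicle 1 to 3 and 20.1, 14.8 and 17.8 CPM in inotodiol 1 to 3. Inotodiol lay above without overlap, as for 5.15% of all genes, but inotodiol 2 and vehicle 1 were almost equal. The log2 fold change was 0.42 ± 0.23. Idh1, a cytosolic source of NADPH, stood at -0.68 ± 0.34, Mcat, of the mitochondrial synthase, at -0.43 ± 0.25, and Mid1ip1, the paralog of Thrsp that activates acetyl-CoA carboxylase, at -0.31 ± 0.24.

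Of the 18 other elongation and desaturation genes, 11 were tested, 7 above 0 and 4 below. Elovl3, which makes very long saturated and monounsaturated chains and is also 1 of the 5 brown fat markers, had a log2 fold change of 0.77 ± 0.37. Its values were 5.90, 4.97 and 5.89 CPM in vehicle 1 to 3 and 12.2, 4.77 and 11.7 CPM in inotodiol 1 to 3, high in the same 2 inotodiol libraries as Thrsp and lowest in inotodiol 2, as Thrsp was. Hacd2 stood at -0.66 ± 0.48, with inotodiol below without overlap, as for 5.26% of all genes. Hsd17b12 stood at 0.45 ± 0.36 and Hacd3 at 0.30 ± 0.29. Hacd2, Hsd17b12 and Hacd3 act in the elongation cycle after the elongase. Elovl2, which was not tested, had 31 of its counts in inotodiol 1 and 1 to 7 in each of the others.

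The activation and esterification genes, which attach CoA to fatty acids and build triglyceride, had 4 of 13 tested members above 0 and 9 below, with a median of -0.14. Acsl4, an acyl-CoA synthetase that prefers arachidonate, had 45.4, 38.9 and 47.4 CPM in vehicle 1 to 3 and 26.0, 36.7 and 35.6 CPM in inotodiol 1 to 3. Inotodiol lay below without overlap, as for 5.26% of all genes, and the log2 fold change was -0.42 ± 0.18. Lpin2, a phosphatidate phosphatase, stood at 0.99 ± 0.54, Acsl6 at -0.26 ± 0.18 and Agpat2 at 0.39 ± 0.32.

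Among the regulators 6 of 15 tested genes lay above 0 and 9 below. Srebf1, whose SREBP-1c product drives Fasn and Scd1, had 14.6, 12.5 and 19.8 CPM in vehicle 1 to 3 and 10.3, 17.5 and 11.1 CPM in inotodiol 1 to 3. It was lowest in inotodiol 1, the library with the most Fasn, and its log2 fold change was -0.27 ± 0.28. Mlxipl stood at -0.26 ± 0.22, and the liver X receptor genes Nr1h2 and Nr1h3 at 0.081 ± 0.18 and 0.18 ± 0.21. Insig2, which holds SREBP in the endoplasmic reticulum, had 41.6, 38.0 and 41.9 CPM in vehicle 1 to 3 and 29.1, 35.2 and 20.6 CPM in inotodiol 1 to 3, all inotodiol values below all vehicle values as for 5.26% of all genes, with a log2 fold change of -0.52 ± 0.20. Nfyb, a subunit of NF-Y, stood at 0.22 ± 0.17 and Rxra, the partner of the liver X receptors, at 0.17 ± 0.15. None of these genes passed the adjusted threshold.

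**Figure D5:**
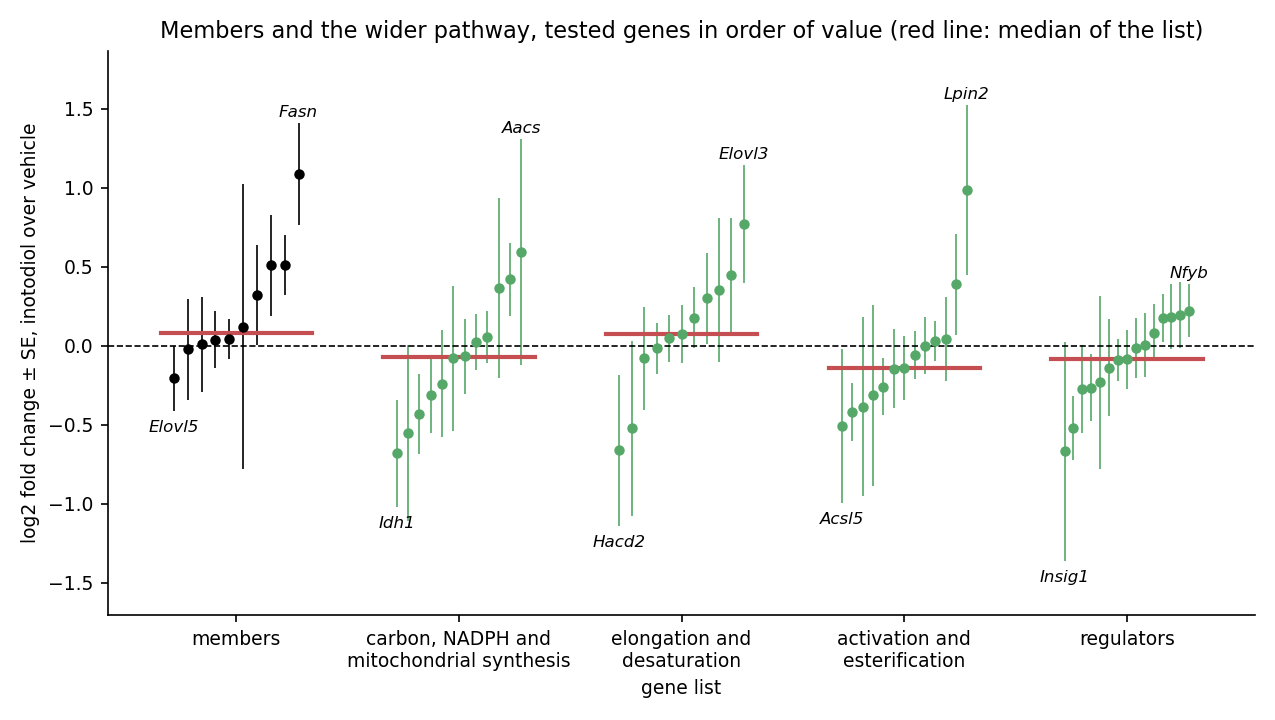
Log2 fold change ± SE of every tested gene, inotodiol over vehicle, in order of value within the 10 members (black) and 4 lists of the wider pathway (green), with the median of each list as a red line and the genes at both ends named. The medians lie between -0.14 and 0.081, and Fasn at 1.09 is the highest point.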

How the data were processed

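Each library has 1 deposited table of read counts by gene symbol, in whole numbers. The submitters' processing notes name Bowtie2, bedtools and mm10; their versions and settings, the annotation and the strand are not given. The labels' protocols describe libraries from 500 ng of total RNA and a Lexogen Quant-Seq kit. Genes passing filterByExpr (minimum count 10, minimum total 15) were TMM-scaled, and the groups were compared in edgeR 4.0.16 under R 4.3.3 (quasi-likelihood F test, no covariate, adjusted p by Benjamini-Hochberg, threshold 0.05), which left 11700 rows tested. Depth was 8961893 to 9953764 counts, and the median standard error, from the fitted weights and moderated dispersion, was 0.28. The fit was tested on simulated data. P-values set the difference between the groups against the spread within them, among 3 labelled biological replicates each. Members and lists were chosen with earlier results of these data known. The text names every member, the 4 genes of smallest p in each wider list, Srebf1, Mlxipl, Nr1h2 and Nr1h3, and genes from the 5 nearest to Fasn and to Scd1, of which 1 is not reported here; Elovl2, Scd3 and single markers were named after their values were seen. Fibroblast, endothelial and skin marker lists, read as well, summed to 982 to 1939, 96.3 to 125 and 1.40 to 3.90 CPM and overlapped between groups. The other settings tried were 3 further scalings (RLE, upper quartile, library totals), no filter, a strict filter (1 CPM in all 6 libraries), DESeq2 1.42.0, limma-voom (limma 3.58.1), a replicate block and leaving out each library. Gene spans are from GENCODE M21 on GRCm38.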

Additional observations from a re-analysis of the deposited data

How the results depend on the processing

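The count of called genes was 0 with all 6 libraries, 95 with no filter on low counts (Fasn the only member among them) and 1 with DESeq2. It was 0 to 25 with single libraries left out (25 without inotodiol replicate 3) and 0 with the other scalings, the strict filter and limma-voom. Elovl6 did not pass the strict filter. Over all alternatives Fasn ranged from 0.68 to 1.40, Scd1 from 0.37 to 0.76, Thrsp from 0.29 to 0.83 and Elovl5 from -0.33 to -0.15. Signs changed under some alternatives for Scd2 (-0.11 to 0.088), Acaca (-0.055 to 0.64), Acacb (-0.16 to 0.20), Acly (-0.24 to 0.22), Elovl6 (-0.32 to 1.89) and Me1 (-0.076 to 0.087). Library totals moved the median of all genes to -0.12, and there Fasn stood at 0.96 and Scd1 at 0.38; with Rn45s also left out of the totals, a choice made after seeing the data, they stood at 1.01 and 0.43. With the replicate number as a block 0 genes were called and Fasn stood at 1.03. Same-numbered libraries deviated from their group means with correlations of -0.081, 0.11 and 0.022, so the numbers were not taken to pair the mice. Of 149 member values 146 moved by less than 1 SD, where SD is the member's pooled SD of log2 CPM within the groups. It is 0.11 for Me1 and 1.07 for Elovl6, so some changes of sign, such as that of Acaca, fall within it. The cause of these shifts was not tested.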
